A study of Mus musculus with 22 samples.

Results

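The goblet cell and mucus genes described here are Muc2, Tff3, Clca1, Fcgbp, Zg16, Agr2, Spdef, Spink4 and Atoh1. The 9 genes were taken by name out of 18193 genes with a named probe set on the array, and each was read from its brightest probe set over 22 arrays. All 9 were measured, and none was removed by a filter on low values. In the terminal ileum of NOD mice given pulsed antibiotic, Atoh1 fell by 14.1% against controls averaged over the sexes and fell by 19.6% in males, while none of the 7 secreted or secretory genes among the 9 passed the test against controls. Atoh1 was not called in females alone, and its call averaged over the sexes was lost when single female arrays were left out. Neither Atoh1 call stood with a measure of RNA quality as a covariate. Spink4 was lower in males given pulsed antibiotic than in males given sub-therapeutic antibiotic, a call that was lost when single arrays of the latter were left out.

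Total RNA of the terminal ileum was hybridised to Affymetrix 1-colour expression arrays, with 1 array per sample, and array numbers within a group only name the array. All groups were NOD mice, inbred animals prone to autoimmune diabetes: PAT (pulsed therapeutic doses of antibiotic; 3 females and 5 males), STAT (continuous sub-therapeutic antibiotic treatment; 3 females and 3 males) and control (3 females and 5 males). The sources used here do not give the antibiotic, its dose or the age at sampling. Nothing in the labels says that arrays of one group came from separate animals, so p-values measure the spread between these samples, which may be technical. Values are log2 expression after the robust multi-array average (RMA), a change of 1 unit being a doubling of signal, and the number of arrays limits the precision.

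Goblet cells are the mucus-secreting cells of the gut epithelium. Atoh1, a basic helix-loop-helix transcription factor, is needed for the secretory lineage of the epithelium and is held down by Notch signalling through the repressor Hes1, and Spdef, an Ets-family factor downstream of Atoh1, drives goblet cell maturation. The mature cell secretes the gel-forming mucin Muc2, folded with the help of the disulfide isomerase Agr2, together with the mucus proteins Fcgbp, Clca1 (a secreted metalloprotease) and Zg16 (a lectin that binds bacteria) and the small secreted peptides Tff3 (a trefoil factor) and Spink4 (a Kazal-type protease inhibitor by family).

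Some arrays stood apart. Fabp6, the ileal bile acid binding protein, lay between 13.93 and 14.62 on all 22 arrays, but PAT female 1 also had Lct, the lactase of the more proximal intestine, at 10.37 against 4.18 to 4.81 on the other 21 arrays. In that array Gip, a hormone of the proximal intestine, was at 11.70 against 6.46 to 7.89 elsewhere, and the mean of 6 B cell and follicle markers stood 1.86 log2 units above the mean of all arrays, against at most 0.15 elsewhere. STAT males 2 and 3 had lower absorptive enterocyte markers (mean of 11 markers -1 and -0.61 from the mean of all arrays, against 0.01 in STAT male 1 and at least -0.20 on every array outside the STAT males). Their smooth muscle markers were at 0.56 and 0.50, against -0.06 in STAT male 1, but STAT females 1 and 3 were also high at 0.45 and 0.70. These 2 arrays also had the largest 3-prime minus 5-prime differences of the beta-actin control probe sets, 0.59 and 0.60, against 0.28 to 0.42 on the other 20. Where leaving out any of these 3 arrays ended a call on a gene named below, this is stated beside it or counted with the other arrays left out.

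The secreted products gave very bright signals that varied little. Over the 22 arrays Zg16 ranged from 14.63 to 14.80, Tff3 from 14.10 to 14.35, Clca1 from 13.74 to 14.30, Spink4 from 13.40 to 13.98, Agr2 from 12.97 to 13.54, Fcgbp from 12.68 to 13.31 and Muc2 from 12.69 to 13.71. The highest value of any probe set on any array was 15.04, so these 7 genes lie near the top of the measured range, where a change can be compressed, which was not tested. The transcription factors Atoh1 (9.58 to 10.08) and Spdef (8.18 to 8.96) lay in the middle of the range. The pooled standard deviation (SD) within groups was smallest for Zg16 (0.04) and Tff3 (0.06) and largest for Muc2 (0.22). For 5 of the 9 it was below the median of all genes, 0.16.

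**Figure D1:**
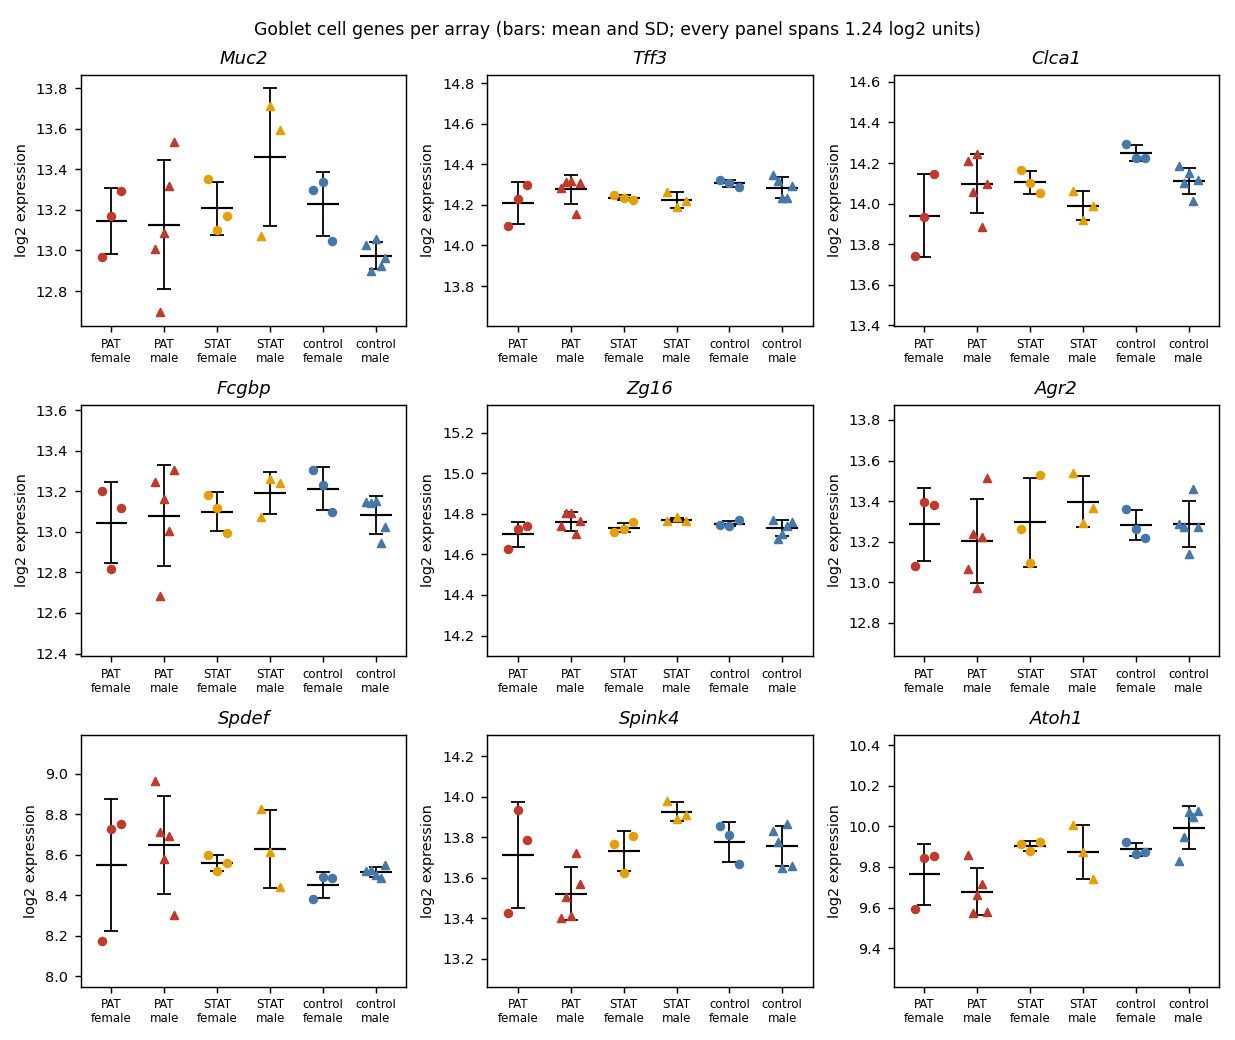
Log2 expression of the 9 genes on every array (vertical axis, every panel spanning the same number of log2 units) by treatment and sex (horizontal axis, circles females and triangles males), with the mean as a horizontal line and the SD as a bar (n = 3 or 5). For Atoh1 all PAT males but PAT male 1 lie below every control male, and for Spink4 all but PAT male 4. STAT males 2 and 3 lie high for Muc2, and Zg16 and Tff3 are nearly flat.

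Atoh1 was the gene that changed with pulsed antibiotic. In PAT males its log2 level was 9.86, 9.58, 9.66, 9.72 and 9.58, against 9.83, 9.95, 10.07, 10.05 and 10.08 in control males. Of these PAT males, 4 lay below every control male, and PAT male 1 lay above the lowest control, so the groups overlapped by 1 array. In PAT females it was 9.59, 9.85 and 9.85, against 9.92, 9.87 and 9.87 in control females. The females did not overlap, but PAT females 2 and 3 lay only narrowly below the controls. Averaged over the sexes, Atoh1 fell by 0.22 ± 0.06 (log2 change ± standard error, SE; 95% interval -0.35 to -0.09; limma, adjusted p = 0.0235), that is, it fell by 14.1%. It was the only one of the 9 genes called at an adjusted p under 0.05 in that comparison, against 11% of all genes tested with 6.38% called lower and 4.61% higher, so a count of 1 of 9 is near the share of all genes. In whole tissue, fewer Atoh1-expressing cells and less Atoh1 RNA per cell cannot be told apart.

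In males alone the Atoh1 change was -0.32 ± 0.08 (95% interval -0.47 to -0.16, adjusted p = 0.0119), and Atoh1 was again the only one of the 9 called, with 9.02% of all genes called, 6.68% lower and 2.34% higher. In females it was -0.12 ± 0.10 (adjusted p = 0.502), with none of the 9 called and 3.35% of all genes called. The change in females minus that in males was 0.19 ± 0.12 (adjusted p = 0.396), so a difference between the sexes was not shown. Without PAT female 1 the change averaged over the sexes was -0.18 ± 0.06 and was no longer called (adjusted p = 0.0882), and the same held without control female 1. The call in males stood with each of the 10 arrays left out in turn (changes of -0.36 to -0.29, adjusted p at most 0.0409).

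One measure of the RNA moved with this result. The 3-prime minus 5-prime difference of the Gapdh control probe sets was -0.23, -0.15, -0.19, -0.13 and -0.08 in PAT males, against -0.20, -0.26, -0.20, -0.26 and -0.26 in control males, and -0.03, -0.08 and -0.11 in PAT females, against -0.17, -0.20 and -0.09 in control females. With that difference as a covariate, the Atoh1 change was -0.13 ± 0.07 averaged over the sexes (adjusted p = 0.338) and -0.23 ± 0.08 in males (adjusted p = 0.0884). The sign stayed negative and neither was called.

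Set in order, the Atoh1 group means ran from 9.68 ± 0.12 in PAT males and 9.76 ± 0.15 in PAT females through 9.87 ± 0.13 in STAT males, 9.89 ± 0.03 in control females and 9.91 ± 0.02 in STAT females up to 9.99 ± 0.11 in control males (SD). Neighbours in that order differed by about the pooled SD within groups (0.11) or less. STAT males had 10.01, 9.87 and 9.74 and STAT females 9.91, 9.88 and 9.92, which overlap the controls. The STAT minus control change of Atoh1 was -0.05 ± 0.06 (95% interval -0.19 to 0.08, adjusted p = 0.781), and it was slightly above 0 (0.01) without STAT males 2 and 3. PAT minus STAT was -0.17 ± 0.06 averaged over the sexes (adjusted p = 0.136).

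Spdef, the other goblet cell transcription factor, did not pass the test. Its log2 level was 8.96, 8.71, 8.58, 8.69 and 8.30 in PAT males and 8.18, 8.73 and 8.75 in PAT females, against 8.52, 8.52, 8.50, 8.48 and 8.55 in control males and 8.38, 8.49 and 8.48 in control females. PAT arrays lay on both sides of the controls, with SDs of 0.24 in PAT males and 0.33 in PAT females against 0.02 and 0.06 in the controls of the same sex. The change was 0.12 ± 0.09 (95% interval -0.07 to 0.30, adjusted p = 0.487).

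Muc2, the gel-forming mucin of the intestine, did not differ detectably between PAT and control. Its level was 13.01, 12.69, 13.09, 13.32 and 13.53 in PAT males, against 13.03, 12.90, 13.05, 12.92 and 12.96 in control males. The PAT males spanned the whole range of the controls and went beyond it on both sides. In PAT females it was 12.97, 13.17 and 13.30, against 13.30, 13.34 and 13.05 in control females. The change averaged over the sexes was 0.04 ± 0.11 (95% interval -0.19 to 0.26, adjusted p = 0.895).

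In STAT males Muc2 was 13.07, 13.71 and 13.60, and in STAT females 13.35, 13.10 and 13.17. All 3 STAT males lay above the 5 control males, the first only narrowly, and the other 2 are the arrays with low enterocyte markers. The STAT minus control change in males was 0.49 ± 0.15 (40.1%, 95% interval 0.17 to 0.80), with an adjusted p of 0.143, so it was not called, and without STAT males 2 and 3 it was 0.10. With the beta-actin difference as a covariate it was 0.14. The part of tissue composition and RNA quality in this difference was not tested further. In females the change was -0.02 ± 0.17, and the change in females minus that in males was -0.51 ± 0.23 (adjusted p = 0.991).

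Agr2, which assists the folding of Muc2, had a PAT minus control change of -0.04 ± 0.08 (95% interval -0.21 to 0.13, adjusted p = 0.843). PAT males had 13.07, 13.24, 12.97, 13.22 and 13.51, against 13.29, 13.27, 13.14, 13.46 and 13.27 in control males, and the groups overlapped. Its second probe set, at a mean of 11.19, gave 0.03 ± 0.09, also not called. Of the secreted mucus proteins, Fcgbp changed by -0.09 ± 0.08 (adjusted p = 0.602) and Zg16 by -0.01 ± 0.04 (adjusted p = 0.926) between PAT and control. The interval of Zg16, -0.10 to 0.08, was the narrowest among the 9 genes. Its other 2 probe sets gave -0.05 ± 0.05 and -0.06 ± 0.05.

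Clca1 came nearest to a call in females. It was 13.74, 13.94 and 14.15 in PAT females, against 14.30, 14.23 and 14.22 in control females. All 3 PAT females lay below all 3 controls, with PAT female 1 the lowest of all 22 arrays. The change in females was -0.31 ± 0.10 (95% interval -0.52 to -0.10, adjusted p = 0.0825), and it was -0.21 without PAT female 1. In males PAT had 14.21, 14.06, 14.25, 13.88 and 14.10, against 14.18, 14.10, 14.15, 14.01 and 14.12 in controls, a change of -0.01 ± 0.08. Averaged over the sexes the change was -0.16 ± 0.06 (adjusted p = 0.109), and it was called only when PAT female 3 was left out (adjusted p = 0.035). The second Clca1 probe set, with a mean of 8.03, gave -0.38 ± 0.14 and was not called. Clca1, Zg16 and Atoh1 were the 3 genes whose PAT females lay wholly below the control females, a separation that 13.2% of all genes showed, and in males none of the 9 genes was so separated (5.29% of all genes).

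Tff3 had a PAT minus control change of -0.05 ± 0.05 (95% interval -0.15 to 0.04, adjusted p = 0.538). PAT males had 14.28, 14.31, 14.32, 14.15 and 14.31, against 14.35, 14.32, 14.24, 14.23 and 14.29 in control males. PAT male 4 was the low one, and the other 4 PAT males lay within the range of the controls.

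Spink4 differed between the antibiotic regimens in males. In PAT males it was 13.40, 13.51, 13.41, 13.72 and 13.57, against 13.98, 13.89 and 13.91 in STAT males. The 2 groups did not overlap: the highest PAT male lay below the lowest STAT male. The change was -0.40 ± 0.10 (95% interval -0.61 to -0.20; limma, adjusted p = 0.0189), a level that fell by 24.4%. It was the only one of the 9 called in that comparison, with 8.71% of all genes called, 5.24% called lower, and 7.08% of all genes separated in the same direction.

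The call was lost without STAT male 2 or 3 (adjusted p up to 0.0794), and without both, leaving 1 STAT male that is assumed to vary like the other groups, the change was -0.46 ± 0.16 (adjusted p = 0.258). Against control males (13.83, 13.77, 13.65, 13.86 and 13.66), the PAT minus control change was -0.23 ± 0.09 (adjusted p = 0.0959) and STAT minus control was 0.17 ± 0.10 (adjusted p = 0.443), neither of them called. These comparisons share the control arrays. In PAT females Spink4 was 13.43, 13.93 and 13.79, against 13.77, 13.62 and 13.81 in STAT females and 13.86, 13.81 and 13.67 in control females, which overlap.

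**Figure D2:**
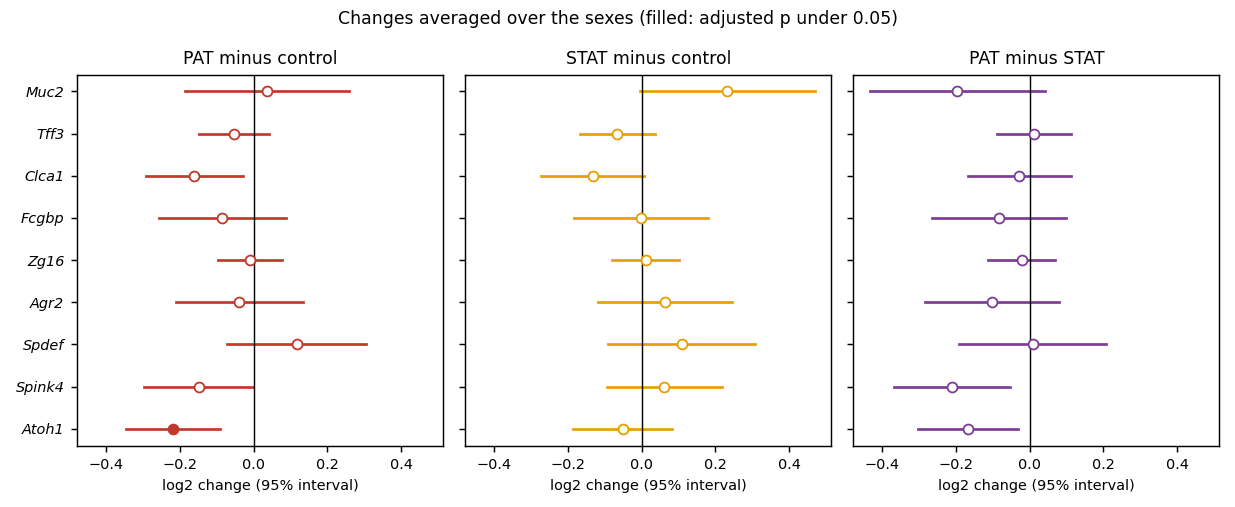
Log2 change of the 9 genes averaged over the sexes (horizontal axis, points with 95% intervals) for PAT minus control, STAT minus control and PAT minus STAT, with a filled point where the adjusted p was under 0.05. The filled point is Atoh1 in PAT minus control, at -0.22. In that comparison the intervals of Clca1 and Spink4 also lie below 0, without a call.

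Over the 9 genes, PAT minus control changes averaged over the sexes had a median of -0.05, against -0.0048 over all genes, with 7 below 0 and 2 above 0. Changes larger than 1.27-fold in either direction lay outside the 95% intervals of all 9 genes in that comparison. At an unadjusted p under 0.05 there were 3 genes (Clca1, Spink4 and Atoh1), against 24.1% of all genes. For STAT minus control averaged over the sexes, limma called none of the 9 genes and none of the 18193 genes (0%). At an unadjusted p under 0.05 there were 0 of the 9, against 13.1% of all genes, and the largest change that the intervals allow was 1.38-fold, for Muc2. In STAT males and in STAT females none was called, with 0% of all genes called in each. Muc2 and Spink4 in STAT males lay wholly above control males (2.53% of all genes did), and in STAT females Spdef lay wholly above (4.79%) and Tff3 and Clca1 wholly below the control females (5.1%). PAT minus STAT averaged over the sexes had none of the 9 called (5.88% of all genes), with Spink4 at -0.21 ± 0.08 (adjusted p = 0.105) and Atoh1 at -0.17 ± 0.06. In females none was called between PAT and STAT (0.863% of all genes), and Atoh1 alone was separated, lower in PAT (11.2%).

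Female and male controls did not differ in any of the 9 genes by the test (0.055% of all genes were called). The largest difference was that of Muc2, 0.26 ± 0.15 higher in females, with an adjusted p of 0.518. The test of the difference between the sexes in the PAT change called none of the 9 (0.0055% of all genes), and Clca1 had the smallest p there, with a difference of -0.29 ± 0.13 (adjusted p = 0.225).

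Upstream sequences are shown for Atoh1, which was called against controls, and for Muc2 and Fcgbp. Muc2 and Fcgbp were chosen because they alone of the searched genes held a match to the motifs below. RefSeq promoter sequences (build GRCm38.p6) were matched for 5 of the 9 genes, and the 250 bases before the annotated start were searched on both strands for CAGCTG and CAGATG, E-boxes of the kind that basic helix-loop-helix factors such as Atoh1 bind, for CACNAG, the N-box of Hes repressors, and for TATAAA. Among all 32851 promoters of the table, 13% held CAGCTG, 14.4% held CAGATG, 36.7% held CACNAG and 12.4% held TATAAA. Atoh1 (chr6:64728875-64729124, plus strand) held none of the 4, nor did Agr2 and Spdef. Muc2 (chr7:141690090-141690339, plus strand) held CAGCTG beginning 112 bases before the start and TATAAA 174 bases before it. Fcgbp (chr7:28070986-28071235, plus strand) held CACNAG, beginning 211 bases before the start, overlapping CAGCTG, beginning 208 bases before it. In the sequences, capitals mark the matches to CAGCTG and CACNAG. A match describes letters in this window and is not a binding site.
Atoh1: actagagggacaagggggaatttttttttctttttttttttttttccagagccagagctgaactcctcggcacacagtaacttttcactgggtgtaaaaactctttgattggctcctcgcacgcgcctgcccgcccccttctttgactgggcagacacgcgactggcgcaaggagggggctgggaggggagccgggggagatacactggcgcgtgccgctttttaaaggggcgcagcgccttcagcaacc
Muc2: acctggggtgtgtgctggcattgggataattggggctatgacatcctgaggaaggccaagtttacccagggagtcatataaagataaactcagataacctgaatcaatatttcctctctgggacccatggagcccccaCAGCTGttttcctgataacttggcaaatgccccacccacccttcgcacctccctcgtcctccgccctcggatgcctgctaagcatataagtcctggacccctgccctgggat
Fcgbp: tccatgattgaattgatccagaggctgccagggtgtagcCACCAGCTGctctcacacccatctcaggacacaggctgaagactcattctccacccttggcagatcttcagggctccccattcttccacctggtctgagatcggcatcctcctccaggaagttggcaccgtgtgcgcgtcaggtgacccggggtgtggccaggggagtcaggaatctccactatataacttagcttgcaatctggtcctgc

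Within groups, the 9 genes moved together only loosely. After each array was set against the mean of its own group, the 36 pairs of genes had a median Pearson correlation of 0.20 over the 22 arrays, from -0.38 (Fcgbp and Spdef) to 0.84 (Tff3 and Clca1), with 6 pairs above 0.5 and 11 below 0. The closest pairs after Tff3 and Clca1 were Spdef and Atoh1 (0.75), Agr2 and Spink4 (0.71), Tff3 and Zg16 (0.66) and Muc2 and Fcgbp (0.57). PAT female 1 stood apart: 8 of its 9 genes lay below the mean of their group, and its mean deviation was -1.63 in units of each gene's own spread, against -0.47 to 1.13 on the other arrays. Without it the median correlation of the pairs was -0.15, while Tff3 and Clca1 were at 0.77, Muc2 and Fcgbp at 0.69, Agr2 and Spink4 at 0.66, Spdef and Atoh1 at 0.64 and Tff3 and Zg16 at 0.49. These points share arrays and their RNA quality, and the correlations are given as a description.

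**Figure D3:**
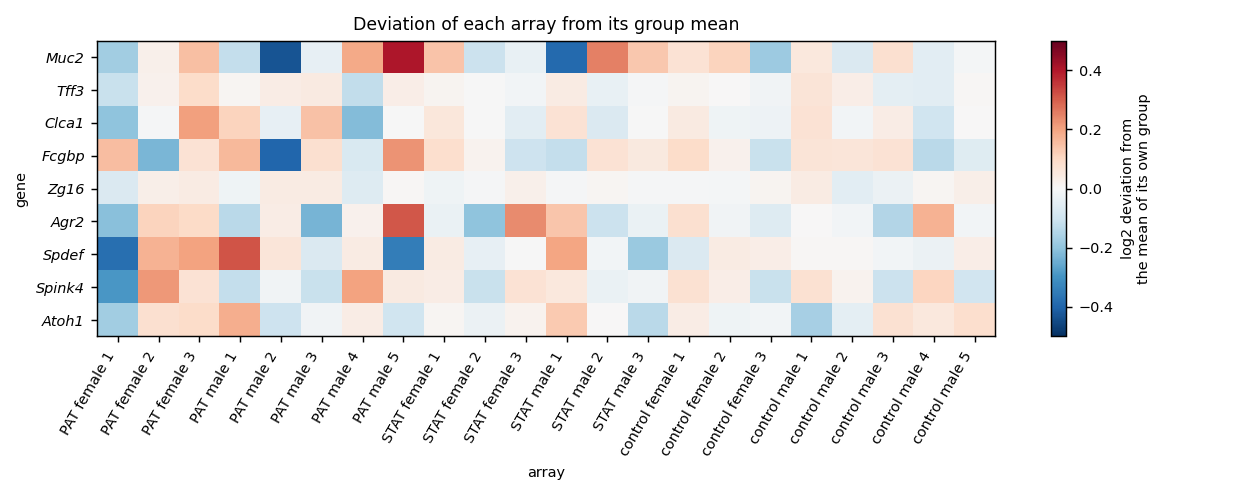
Deviation of each array (columns) from the mean of its own group, in log2 units (colour), for the 9 genes (rows). PAT female 1 is below its group mean for 8 of the 9 genes, and Muc2 and Fcgbp are both low in PAT male 2 and both high in PAT male 5.

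Outside the 9 genes, the patterns most like the mean of the 9, by group-centred correlation over the 22 arrays, were those of Bcas1 (0.90), Hgfac (0.88), Hoxb9 (0.85), Prkaa2 (0.85) and Slc13a1 (0.84). Without PAT female 1 they were 0.81, 0.78, 0.25, 0.75 and 0.51, so the likeness of Hoxb9 rests on that array. Of these 5, Bcas1 is also on the list of other goblet cell genes.

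The other genes of the mucus pathway were read from lists of known function. Of all genes, 6.38% were called lower and 4.61% higher in PAT than in control averaged over the sexes. Of 25 measured goblet cell genes beyond the 9 (secreted products and secretory machinery), 2 were lower in PAT than in control, near the share of all genes. None was higher and 23 did not pass, with a median change of -0.16. The 2 were Ccl6, a chemokine, at -0.25 ± 0.07 (adjusted p = 0.0214) and Retnlb, a secreted goblet cell peptide, at -2.85 ± 0.80 (adjusted p = 0.0236). Retnlb varied most within groups, at 3.52, 7.74 and 5.81 in PAT females and 4.79, 6.42, 5.19, 6.82 and 5.34 in PAT males, against 8.03, 8.80 and 8.65 in control females and 8.24, 6.42, 9.08, 9.91 and 9.44 in control males. Every PAT female lay below every control female, a separation that 13.2% of all genes showed. In males the groups overlapped at PAT males 2 and 4 and control male 2. Several PAT levels of Retnlb lay below the array medians (5.68 to 5.79), where signals are dim. The Retnlb call was lost without PAT female 1 (-2.31, adjusted p = 0.0847) and without control females 2 or 3, and the Ccl6 call without PAT female 3 or control female 1 (adjusted p up to 0.0676). Ern2, the goblet cell endoplasmic reticulum stress sensor, was at -0.16 ± 0.08 and did not pass (adjusted p = 0.23).

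Genes that decorate or shape mucins went both ways. The counts averaged over the sexes stand beside 4.61% of all genes called higher and 6.38% called lower in PAT than in control. Of 28 measured genes of mucin O-glycosylation, 3 were higher and 4 lower in PAT than in control, and 21 did not pass (median -0.12). Those of smallest p were Galnt2, which starts O-glycan chains (0.26 ± 0.06, adjusted p = 0.00842), B3gnt6, which makes the core 3 structure (-0.52 ± 0.13, adjusted p = 0.0108), St6galnac6 (-0.99 ± 0.25, adjusted p = 0.0145) and St3gal6 (0.35 ± 0.09, adjusted p = 0.0151), both sialyltransferases. With the Gapdh difference as a covariate none of these 4 was called (adjusted p from 0.147 to 0.281), and the St3gal6 call was also lost without PAT female 1 (0.25, adjusted p = 0.0556). B3gnt6 was dim, from 5.73 in PAT male 4 to 7.18 in control male 2 over the PAT and control arrays. Of 7 measured membrane mucins, Muc13 was lower (-0.40 ± 0.11, adjusted p = 0.0223) and 6 did not pass. Muc13 was 12.34, 12.81 and 12.68 in PAT females and 13.00, 12.91, 13.06, 12.80 and 12.69 in PAT males, against 13.10, 13.03 and 13.33 in control females and 13.03, 13.56, 13.03, 12.98 and 13.16 in control males. The PAT arrays lay below the controls except for PAT males 1 and 3, and the call was lost without PAT female 1 (adjusted p = 0.0782), without control female 3 and with the Gapdh covariate (-0.20, adjusted p = 0.398). In males the call in this list was another gene and the other direction: Muc3 was higher in PAT (0.56 ± 0.12, adjusted p = 0.00793), and it stayed called with each of the 10 arrays left out in turn (0.42 to 0.61). Of 8 measured protein disulfide isomerases, the family of Agr2, 3 were higher (Pdia4 at 0.33 ± 0.09, P4hb at 0.19 ± 0.06 and Pdia6 at 0.33 ± 0.10) and 5 did not pass, but each of these 3 calls was lost without PAT female 1 (adjusted p of 0.0528, 0.111 and 0.0651).

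Of 14 measured transcription factors of the secretory lineage and its maturation, 2 were higher and 2 lower in PAT than in control, and 10 did not pass (median -0.05). Of all genes, 4.61% were called higher and 6.38% lower in that comparison. Ehf, an epithelial Ets factor, was 10.23, 10.24 and 10.32 in PAT females and 10.05, 9.98, 10.26, 10.08 and 10.19 in PAT males, against 10.50, 10.40 and 10.41 in control females and 10.72, 10.64, 10.52, 10.63 and 10.43 in control males. PAT and control did not overlap in either sex, and the change was -0.32 ± 0.06 (adjusted p = 0.00225). In females 13.2% of all genes were separated in that direction, and in males 5.29%. Elf3, another epithelial Ets factor, was at -0.54 ± 0.11 (adjusted p = 0.00323). Klf4, a factor of terminal differentiation that colonic goblet cells need in mice, was 12.55, 12.48 and 13.05 in PAT females and 13.14, 13.58, 13.18, 12.73 and 12.65 in PAT males, against 12.16, 12.38 and 12.35 in control females and 12.44, 12.17, 12.25, 12.15 and 12.35 in control males. The Klf4 change was 0.59 ± 0.14 (50.4%, adjusted p = 0.00905). Xbp1, of the unfolded protein response, was at 0.17 ± 0.05 (adjusted p = 0.0493), a call that was lost in 13 of 16 fits with 1 array left out, PAT female 1 among them (adjusted p = 0.0815). With the Gapdh covariate Ehf (-0.39, adjusted p = 0.00308) and Klf4 (0.85, adjusted p = 0.00075) stayed called, and Elf3 (-0.40, adjusted p = 0.0755) and Xbp1 (0.16, adjusted p = 0.201) did not.

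In males, where Atoh1 was called, 1 of these 14 factors was higher and 5 were lower in PAT. Of all genes, 2.34% were called higher and 6.68% lower in males. Gfi1, a repressor that acts downstream of Atoh1 in goblet and Paneth cells, was 5.30, 5.51, 5.88, 5.66 and 6.55 in PAT males, against 6.80, 6.33, 6.87, 6.53 and 6.45 in control males. The first 4 PAT males lay below every control, PAT male 5 lay within their range, and the change was -0.81 ± 0.17 (it fell by 43.1%, adjusted p = 0.00517). The levels of those 4 lay near the array medians (5.68 to 5.79), where signals are dim. In females Gfi1 changed by -0.01 ± 0.22 (adjusted p = 0.987). The PAT arrays had 6.32, 6.21 and 6.65, against 6.34, 6.27 and 6.60 in the controls.

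Of 15 measured Notch pathway genes, 2 were higher and 1 lower in PAT than in control, and 12 did not pass. These counts stand beside 4.61% of all genes called higher and 6.38% called lower. In males alone, none of the 15 was higher and 2 were lower in PAT (2.34% and 6.68% of all genes). They were Notch1 at -0.57 ± 0.14 (adjusted p = 0.015) and Adam17 at -0.29 ± 0.07 (adjusted p = 0.0145). Over 11 alternative fits the Notch1 call stood in each, and that of Adam17 in 8 (adjusted p up to 0.192). Hes1, the Notch target that represses Atoh1, was 9.66, 9.51 and 9.34 in PAT females and 9.01, 9.25, 9.20, 9.79 and 8.96 in PAT males, against 9.06, 8.72 and 8.78 in control females and 9.21, 8.88, 8.93, 9.24 and 9.09 in control males. The change was 0.65 ± 0.16 in females (adjusted p = 0.032) and 0.17 ± 0.13 in males (adjusted p = 0.415). The call in females was lost without PAT female 1 (0.57, adjusted p = 0.131) and in 3 of the other 5 fits that left out 1 array. Averaged over the sexes Hes1 changed by 0.41 ± 0.10 (adjusted p = 0.0121) and Nrarp, a feedback inhibitor of Notch, by 0.48 ± 0.12 (adjusted p = 0.0112), while Maml1, a Notch coactivator, changed by -0.26 ± 0.06 (adjusted p = 0.0067). With the Gapdh covariate these were 0.41, 0.45 and -0.21 with adjusted p of 0.0751, 0.0882 and 0.102. Over 12 alternative fits the Maml1 call stood in 10, with changes from -0.27 to -0.09 and adjusted p up to 0.2315. Hes1 was called in females and Gfi1 in males, but the change in females minus that in males was not called for Hes1 (0.48 ± 0.20, adjusted p = 0.221) or for Gfi1 (0.80 ± 0.27, adjusted p = 0.155). STAT minus control for Hes1 was 0.43 ± 0.11 and was not called (adjusted p = 0.215).

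**Figure D4:**
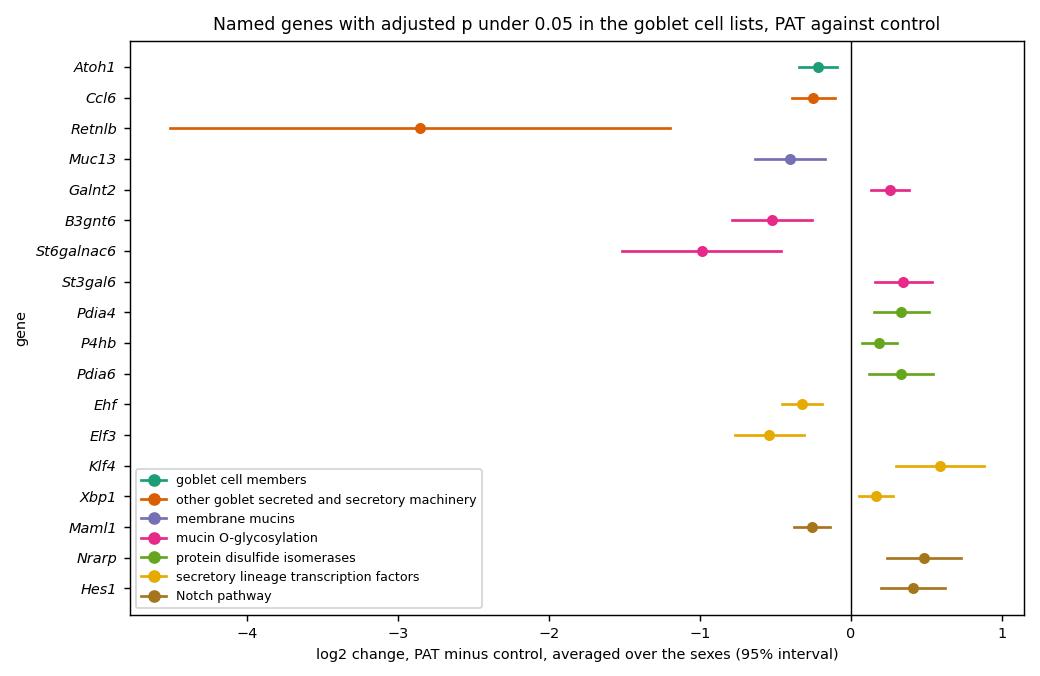
Log2 change in PAT minus control, averaged over the sexes (horizontal axis, points with 95% intervals), for Atoh1 and for up to 4 called genes of smallest p in each goblet cell list (rows, coloured by list). Ehf, Elf3, Maml1, the membrane mucin Muc13 and the glycosyltransferase B3gnt6 lie below 0 with Atoh1, and Klf4, Nrarp and Hes1 lie above 0.

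Markers of the neighbouring cell types gave the following beside these results. PAT minus control called 4.61% of all genes higher and 6.38% lower averaged over the sexes, and 2.34% higher and 6.68% lower in males. Between PAT and control averaged over the sexes, limma called none of 6 measured Paneth cell, 14 enteroendocrine, 7 tuft cell, 6 T cell or 6 smooth muscle markers, nor any of 11 genes of type 2 and IL-22 signalling. Of 6 B cell and follicle markers Cxcl13, a chemokine of lymphoid follicles, was higher in PAT (0.72 ± 0.23, adjusted p = 0.0486; list median 0.39), and without PAT female 1 it was at 0.37 and not called (adjusted p = 0.104). In males, 2 of the 6 Paneth cell markers were lower in PAT, Pla2g2a at -0.82 ± 0.21 (adjusted p = 0.017) and Mmp7 at -0.54 ± 0.17 (adjusted p = 0.0492), and the other 4, Lyz1 among them (-0.16 ± 0.09, adjusted p = 0.289), did not pass. The Mmp7 call was lost in 7 of 10 fits with 1 array left out (adjusted p up to 0.139), and that of Pla2g2a without control male 2 (adjusted p = 0.0519). Of the 7 tuft cell markers Pou2f3 was higher in PAT males (0.29 ± 0.09, adjusted p = 0.0477), which was lost in 8 of 10 such fits. Of 8 stem and crypt markers Ascl2 was lower (-0.58 ± 0.13, adjusted p = 0.00607) and 7 did not pass. The mean of the 8 lay between -0.44 and -0.15 of the mean of all arrays in PAT males, against -0.09 to 0.16 in control males. Females did not show this for the mean, which lay between -0.02 and 0.31 in PAT females, against -0.15 to 0.14 in control females. Ascl2 itself was 7.60, 7.13 and 7.37 in PAT females, against 7.65, 7.61 and 7.78 in control females. It lay wholly lower, as 13.2% of all genes did, and was not called in females. The difference between the sexes in the mean of the 8 was not tested. Of 11 enterocyte markers Apoa4 (1.73 ± 0.34) and Fabp6 (0.21 ± 0.07) were higher in PAT. Apoa4 stayed called with each of 16 arrays left out in turn, while the Fabp6 call was lost in 11 of these 16 fits (adjusted p up to 0.128). The part of these cell types in the Atoh1 result was not tested. Between PAT and STAT males, 8.71% of all genes were called in either direction. Of 11 enterocyte markers 6 were called higher in PAT: Apoa4, Alpi, Fabp2, Slc10a2, Apoa1 and Vil1. Without STAT males 2 and 3 none of these 6 was called: Apoa4 was at 0.75 (2.34 with them), Alpi at 0.20 (0.77), Fabp2 at 0.09 (0.37), Slc10a2 at 0.55 (1.23), Apoa1 at -0.02 (0.57) and Vil1 at 0.12 (0.38). The part of these markers in the Spink4 difference was not tested.

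Between PAT and STAT averaged over the sexes, 5.88% of all genes were called in either direction. Of the 25 other goblet cell genes, 4 were lower in PAT and none was higher. They were Nlrp6, an inflammasome sensor (-0.48 ± 0.09, adjusted p = 0.00175), Cftr, the chloride and bicarbonate channel (-0.52 ± 0.10, adjusted p = 0.00282), Ccl6 (-0.32 ± 0.07, adjusted p = 0.011) and Retnlb (-3.00 ± 0.84, adjusted p = 0.039). The Retnlb call was lost in 8 of 14 fits with 1 array left out, PAT female 1 and STAT male 2 among them, and its change ran from -3.77 to -1.98 over these fits. Of the 28 O-glycosylation genes 4 were lower and none was higher: C1galt1, the core 1 synthase (-0.26 ± 0.06, adjusted p = 0.0151), Galnt7 (-0.35 ± 0.08) and Galnt4 (-0.25 ± 0.06), which add N-acetylgalactosamine to mucin peptides, and St6galnac6 (-0.97 ± 0.27). The St6galnac6 call was lost in 8 of 14 fits with 1 array left out. Over 13 alternative fits the C1galt1 call stood in 10, with changes from -0.28 to -0.0089 and adjusted p up to 0.967. Of the transcription factors, Ehf (-0.44 ± 0.07, adjusted p = 0.00041) and Sox4, a factor of early secretory progenitors (-0.69 ± 0.12, adjusted p = 0.00157), were lower and Klf4 was higher (0.87 ± 0.15, adjusted p = 0.00118). Of the Notch pathway, Nrarp was higher (0.47 ± 0.13, adjusted p = 0.0282) and Adam10, a protease that cleaves Notch (-0.24 ± 0.07, adjusted p = 0.0375), and Notch1 (-0.43 ± 0.12, adjusted p = 0.0416) were lower. The Nrarp, Adam10 and Notch1 calls were lost in 6, 10 and 9 of 14 fits with 1 array left out, STAT male 2 among them each time. Among markers of other cell types, Apoa4 (2.15 ± 0.37) and Fabp6 (0.27 ± 0.07) were higher, and Ascl2 (-0.74 ± 0.14) and the smooth muscle gene Cnn1 (-0.89 ± 0.26, adjusted p = 0.0452) were lower. Without PAT female 1 and STAT males 2 and 3, a setting chosen after the values were seen, Klf4 (0.62, adjusted p = 0.0545), Cftr (-0.41, adjusted p = 0.0541), Ccl6, C1galt1, Galnt7, Galnt4, Adam10, Notch1, Fabp6, Ascl2 and Cnn1 were no longer called, and without STAT males 2 and 3 alone Sox4 was not called either (-0.43, adjusted p = 0.0744). In STAT against control no gene of any list was called.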

How the data were processed

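The deposited table holds 1 column of values for each of 22 arrays and 45101 probe sets. The deposited values are log2 expression. Per the submitters' processing notes, the authors used RMA and affy, with versions not given in the sources used here. RMA corrects background, quantile-normalizes the arrays and summarizes probes by median polish, so levels are relative to the other arrays and small changes of very bright probe sets can be compressed. Column medians lay between 5.68 and 5.79, pairwise correlations of the arrays between 0.984 and 0.997, and no 2 arrays were identical. The platform annotation gave 1 gene symbol to 34945 probe sets, several to 932 and none to 9160, with 64 control probe sets besides, and symbols were checked against RefSeq gene IDs.

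For each of 18193 genes the probe set of highest mean over all arrays was kept. A mean per group of treatment and sex (6 groups) was fitted with limma 3.58.1 in R 4.3.3 (lmFit and eBayes, 16 residual and 4.88 prior degrees of freedom), and contrasts were adjusted by Benjamini-Hochberg over all genes, with a call at an adjusted p under 0.05. No low-value filter was used. The fit was tested on simulated data. Alternatives were other probe set summaries, a filter, other normalizations, other variance settings, array weights, RNA quality covariates, a term for high title numbers and arrays left out.

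All 9 genes were named in every comparison. From 15 other lists (170 of 188 genes measured), counts and up to 4 called genes of smallest p per comparison averaged over the sexes were named, besides the 5 genes of most similar pattern. The 9 genes and the lists were chosen with earlier results of these data known. Values in single sexes for list genes, and Lct, Gip, Fabp6, Ern2 and Lyz1, were chosen after their values were seen.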

Additional observations from a re-analysis of the deposited data

Results flagged for a closer look

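Tff3 in PAT male 4 was 14.15, with the next PAT male at 14.28. The gap took 0.79 of the range of the 5 PAT males, more than Dixon's test at 95% allows. Of 18 groups of 5 arrays tested over the 9 genes this was the 1 that passed that limit, and chance gives about 1 in 20.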

How the results depend on the processing

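No paired analysis was possible because the labels do not match samples between groups. The number of the 9 genes called moved as follows. With the Gapdh difference as a covariate it was 0 in PAT minus control averaged over the sexes and 0 in males, and the genes called over the whole array averaged over the sexes were 428 higher and 328 lower, against 839 and 1160. With array weights it was 1 in STAT minus control and 1 in PAT minus STAT averaged over the sexes (Muc2 in both), 2 in STAT minus control in males (Muc2 and Atoh1) and 2 in PAT minus STAT in males (Muc2 and Spink4). PAT minus STAT in males had 0 when only these groups were fitted, with the beta-actin covariate and without STAT males 2 and 3. Without PAT female 1 and STAT males 2 and 3 together, chosen after the data were seen, PAT minus control had 0. Leaving out 1 array at a time gave 0 to 2 for PAT minus control averaged over the sexes, 0 to 1 in females and 1 to 1 in males, 0 to 1 for STAT minus control in males, and for PAT minus STAT 0 to 1 averaged over the sexes and 0 to 2 in males.

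Changes near 0 turned sign. PAT minus control was 0.0063 for Zg16 with quantile normalization repeated, 0.001 with array weights and 0.0076 without the 3 arrays, 0.0128 for Agr2 without the 3 arrays, and for Muc2 -0.1211 with the Gapdh and -0.0244 with the beta-actin covariate. STAT minus control for Atoh1 was 0.0274 with the Gapdh and 0.0145 with the beta-actin covariate, 0.0144 without STAT males 2 and 3 and 0.0144 without the 3 arrays, and for Fcgbp 0.0334 with array weights. PAT minus STAT for Tff3 was -0.0186 with the beta-actin covariate and -0.0086 without STAT males 2 and 3. For Spdef it was -0.0847 with the beta-actin covariate, -0.0575 with the title number term and -0.0913 without STAT males 2 and 3, and for Muc2 0.0411 without the 3 arrays. In males it was 0.1077 for C1galt1 averaged over its probe sets and -0.0194 for Apoa1 without STAT males 2 and 3. Leaving out 1 array at a time, PAT minus control ran from -0.0147 to 0.0901 for Muc2, -0.0205 to 0.0076 for Zg16 and -0.0777 to 0.0128 for Agr2, PAT minus STAT from -0.0106 to 0.0399 for Tff3, -0.0797 to 0.0224 for Clca1 and -0.0423 to 0.1015 for Spdef, and STAT minus control from -0.0304 to 0.028 for Fcgbp. The cause was not tested.

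With quantile normalization repeated, the split of all called genes moved to 340 higher and 372 lower in PAT minus control in females (413 and 197 as reported) and to 592 and 803 in males (426 and 1215). Groups of 3 arrays and the nearness of 7 of the 9 genes to the top of the signal range limit the precision.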
